A study of Mus musculus with 12 samples.

Results

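Thioglycollate-elicited peritoneal macrophages of wild-type (*N4bp1*+/+) and knockout (*N4bp1*-/-) mice were compared after R848, a synthetic agonist of the endosomal RNA sensor TLR7. The comparison covers the 124 rows that the authors' table of NF-κB-dependent genes holds for this treatment, which are all of the 124 rows in the series. It uses 4 of the 12 libraries. These are the 2 *N4bp1*+/+ and the 2 *N4bp1*-/- libraries labelled as R848 treated, each from the cells of a separate mouse, given 20 ng/ml R848 for 2 h. The *N4bp1*-/- mice carry a small Cas9-induced deletion in an exon of *N4bp1* in all tissues, so the genotype was present in every cell that entered the culture. All mice were young adults of the C57BL/6J strain. Both groups received the thioglycollate injection. The other 8 libraries, unstimulated or given 10 ng/ml LPS, an agonist of TLR4, are used here only to place the R848 values.

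N4BP1 is a cytosolic protein with ubiquitin-binding regions. TLR7 signals through the adapter MyD88, the kinases of the IRAK family and the ubiquitin ligase TRAF6 to the IκB kinase complex, whose regulatory subunit is NEMO. This complex marks IκB proteins for destruction and frees NF-κB dimers to enter the nucleus, where they switch on cytokines, chemokines and survival genes together with their own brakes. In macrophages these brakes include IκBα, the ubiquitin editor A20 and the A20-binding ABIN proteins, which are themselves NF-κB targets. The question of the comparison was how the loss of *N4bp1* bears on the transcripts of NF-κB-dependent genes when TLR7 is engaged.

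For each gene the authors give 1 mean FPKM per genotype over both mice. FPKM counts the fragments of a gene relative to the length of its transcript and to the mapped fragments of the library, so levels of different genes can be set side by side. Values of single mice were not analysed here. The authors' own test of each gene was not used here. The values below therefore carry no spread between mice and no test, and whether a difference exceeds that spread is not judged. Ratios are the *N4bp1*-/- mean over the *N4bp1*+/+ mean, without a pseudocount unless stated. A gene is called higher or lower in *N4bp1*-/- cells when its ratio is at least 1.5-fold, which is a description of size. RNA came from whole cultures, so a larger share of a cell type and more RNA per cell cannot be told apart. The depth is unknown because the values are not counts. *N4bp1* itself is not among the 124 rows, so its transcript was not analysed here and gives no check of the genotype labels. Of 7 macrophage markers, *Spi1*, the master regulator of the myeloid lineage, is the 1 with values, at 388 FPKM in *N4bp1*+/+ cells and 335 FPKM in *N4bp1*-/- cells after R848. The defining markers *Adgre1*, *Csf1r*, *Lyz2*, *Cd68* and *Itgam* are not among the rows.

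NF-κB binds 10-base sites in the promoters of its targets. RefSeq promoter windows on GRCm38.p6, which reach from 250 bases before to 50 bases after a transcription start, were found for 87 of the 131 gene names in the 124 rows. The NF-κB consensus (3 G, a purine, any base, A or T, 2 pyrimidines and 2 C) occurred on either strand in 24 of these 87 genes (27.6%), and in 5.14% of the 27025 genes with such windows. The rows were listed by the authors as NF-κB-dependent, so a higher share than among all genes cannot be read as a result of the comparison. The consensus was present in 9 of 25 genes higher in *N4bp1*-/- cells (36%) and in 15 of 60 genes that were neither higher nor lower (25%). It was present in 0 of the 2 lower genes. A second form of the site (3 G, any 2 bases, 3 T and 2 C), whose matches can overlap those of the consensus, was present in 14.9% of the 87 genes and in 1.89% of all genes. By this form the order was the other way round, with 3 of the 25 higher genes (12%) and 9 of the 60 that were neither (15%). Of the 2 lower genes 1 had it. A match to these letters is not evidence of binding, and a window without a match can have sites elsewhere.

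The windows of 5 genes are shown because they encode targets and brakes of the pathway whose ratios differ in size. *Il6* and *Ptgs2* are inflammatory targets with higher means in *N4bp1*-/- cells. *Tnip3*, *Nfkbia* and *Tnfaip3* encode the brakes ABIN-3, IκBα and A20. Capitals mark matches to the NF-κB consensus on either strand, and each window is written 5′ to 3′ along its gene.
Il6 (chr5:30012864-30013163, plus strand): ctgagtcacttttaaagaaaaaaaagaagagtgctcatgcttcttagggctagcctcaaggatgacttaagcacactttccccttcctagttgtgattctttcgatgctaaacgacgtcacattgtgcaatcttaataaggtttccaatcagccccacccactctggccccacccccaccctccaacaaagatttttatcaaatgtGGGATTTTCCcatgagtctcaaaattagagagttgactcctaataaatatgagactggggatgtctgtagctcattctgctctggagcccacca
Ptgs2 (chr1:150099781-150100080, plus strand): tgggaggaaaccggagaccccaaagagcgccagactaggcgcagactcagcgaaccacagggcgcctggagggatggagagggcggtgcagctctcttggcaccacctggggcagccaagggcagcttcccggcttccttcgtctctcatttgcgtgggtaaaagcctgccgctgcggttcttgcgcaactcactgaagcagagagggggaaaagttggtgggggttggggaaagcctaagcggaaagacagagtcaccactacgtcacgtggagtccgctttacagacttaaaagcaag
Tnip3 (chr6:65590148-65590447, plus strand): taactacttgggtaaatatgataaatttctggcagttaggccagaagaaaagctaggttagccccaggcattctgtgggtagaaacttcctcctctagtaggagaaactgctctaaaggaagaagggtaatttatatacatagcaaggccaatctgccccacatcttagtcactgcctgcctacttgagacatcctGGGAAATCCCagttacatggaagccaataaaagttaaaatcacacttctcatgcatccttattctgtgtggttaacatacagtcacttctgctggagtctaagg
Nfkbia (chr12:55492598-55492897, minus strand): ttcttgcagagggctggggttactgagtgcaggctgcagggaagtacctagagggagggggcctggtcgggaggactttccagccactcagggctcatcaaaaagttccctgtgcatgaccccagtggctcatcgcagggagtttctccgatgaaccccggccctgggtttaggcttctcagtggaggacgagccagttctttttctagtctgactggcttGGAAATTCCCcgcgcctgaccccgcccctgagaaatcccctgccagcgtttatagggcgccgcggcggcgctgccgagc
Tnfaip3 (chr10:19015361-19015660, minus strand): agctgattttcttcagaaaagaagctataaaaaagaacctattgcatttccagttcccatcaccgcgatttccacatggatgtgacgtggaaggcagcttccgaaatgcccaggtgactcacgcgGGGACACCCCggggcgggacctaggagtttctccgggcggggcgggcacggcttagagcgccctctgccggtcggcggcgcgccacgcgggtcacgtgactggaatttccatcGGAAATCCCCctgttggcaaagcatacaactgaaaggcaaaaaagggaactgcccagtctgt
The match in *Il6* begins 44 bases before the start, that in *Tnip3* 54 bases and that in *Nfkbia* 29 bases before it. *Tnfaip3* has matches that begin 125 and 12 bases before the start of the window shown, and its second RefSeq window (chr10:19011914-19012213) holds none. The *Ptgs2* window holds no match. Of these 5 genes, *Il6*, *Ptgs2* and *Tnip3* were past 1.5-fold after R848, and *Nfkbia* and *Tnfaip3* were not.

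After R848, 42 of the 124 genes (33.9%) had at least 1.5-fold higher means in *N4bp1*-/- macrophages, 4 (3.23%) were at least 1.5-fold lower and 78 were neither. At 2-fold, 31 were higher (25%) and 2 were lower (1.61%). The ratio lay above 1 for 87 genes and below 1 for 37, and the median gene was 1.21-fold higher, a log2 ratio of 0.28. The genes with the largest ratios that reached 1 FPKM in a genotype act in quite different processes: *Trem1*, which encodes an amplifying receptor of myeloid cells, *Ccr7*, the receptor that guides dendritic cells to lymph nodes, *Sox9*, a developmental transcription factor, the locus of the complement proteases *C2* and *Cfb*, *Upp1*, which breaks down uridine, and *Ptges*, the last enzyme of prostaglandin E2 synthesis. With a pseudocount of 1 FPKM, 34 genes were higher (27.4%) and 3 were lower (2.42%). The last gene inside the higher set was *Nfkbiz*, at 1.53-fold, and the first outside was *Tnfrsf9*, at 1.498-fold. On the lower side these were *Tfec*, 1.56-fold lower, and *Cd83*, 1.49-fold lower.

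**Figure D1:**
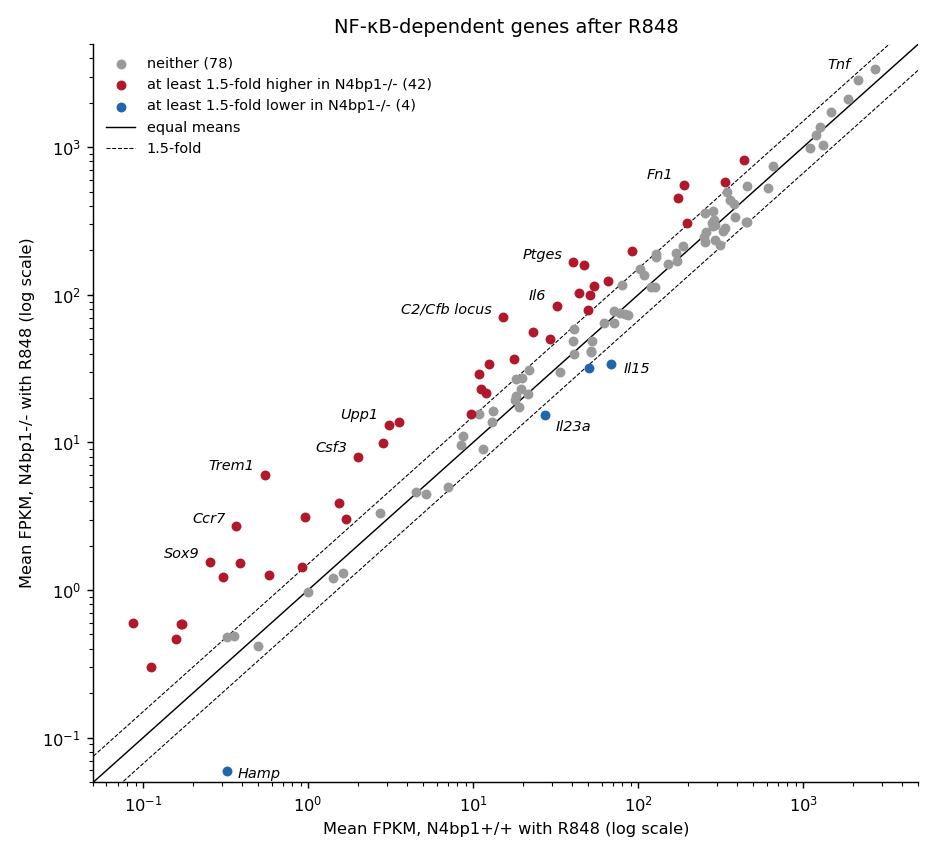
Authors' mean FPKM of each of the 124 genes after R848 in N4bp1+/+ (x axis) and N4bp1-/- (y axis) macrophages, both on log scales, with lines of equal means and of 1.5-fold difference. The 42 red points lie above the upper line and the 4 blue points below the lower one, while the most abundant genes, such as Tnf, lie close to the line of equal means.

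The size of the ratio went with the level of the gene. Among the 42 genes of highest mean FPKM over both genotypes, 6 were at least 1.5-fold higher in *N4bp1*-/- cells (14.3%) and 0 were lower. Of the next 42 genes 14 were higher (33.3%), and of the 40 genes of lowest mean 22 were (55%). The median log2 ratios of these sets were 0.15, 0.30 and 0.76. With a pseudocount of 1 FPKM, which draws low genes toward equality, they were 0.15, 0.30 and 0.39, and 6, 14 and 14 genes were higher. The part of the level in these ratios was not tested. In the sum of all 124 means, which the abundant genes dominate, *N4bp1*-/- cells had 29560 FPKM and *N4bp1*+/+ cells 25496 FPKM, a ratio of 1.16. The 5 most abundant genes in *N4bp1*+/+ cells were *Ccl3*, *Tnf*, *Il1b*, *Il1a* and *Ccl9*. They made up 37.3% of this sum in *N4bp1*+/+ and 37.5% in *N4bp1*-/- cells.

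**Figure D2:**
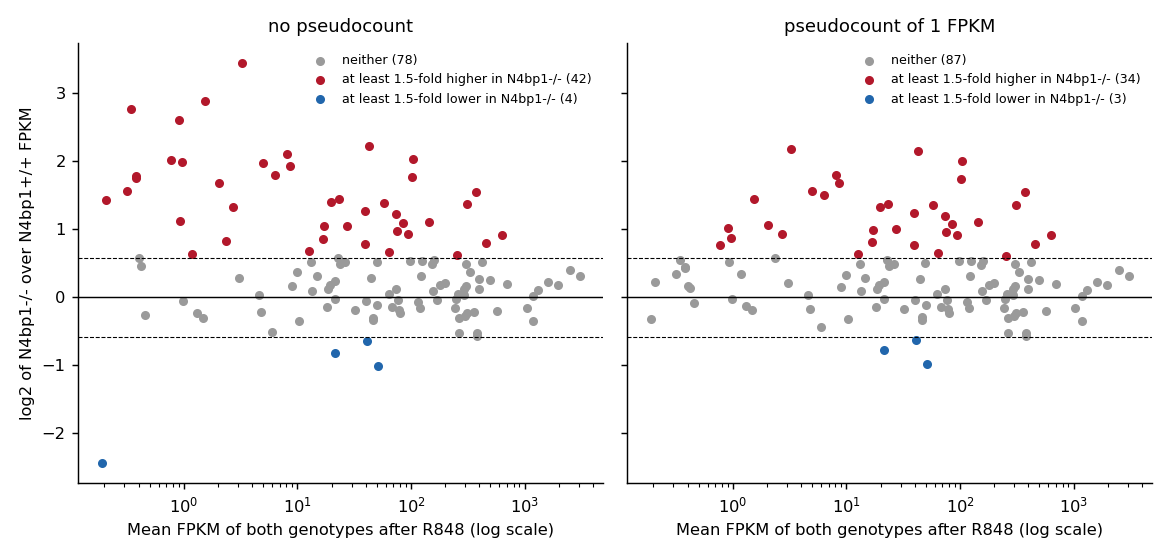
Log2 ratio of N4bp1-/- over N4bp1+/+ FPKM after R848 (y axis) against the mean FPKM of both genotypes (x axis, log scale), without a pseudocount (left) and with 1 FPKM added to both means (right); dashed lines mark 1.5-fold. The spread is widest at low FPKM on the left, and the number of genes at least 1.5-fold higher goes from 42 to 34 with the pseudocount.

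The listed transcripts of the NF-κB machinery itself differed little between the genotypes after R848. The subunit gene *Rela* and the genes of the IκB kinase complex are not among the rows. Of the 8 rows for subunits of NF-κB and its IκB inhibitors, 1 was at least 1.5-fold higher (12.5%, against 33.9% of all listed genes), and the median log2 ratio was 0.04. That gene was *Nfkbiz*, which encodes IκBζ, a nuclear cofactor needed for secondary targets such as *Il6*. Its mean was 199 FPKM in *N4bp1*+/+ cells and 305 FPKM in *N4bp1*-/- cells. *Nfkbia*, which encodes IκBα, was the most abundant of the group, at 654 and 750.0 FPKM. The subunit genes *Nfkb1* (p105 and p50), *Nfkb2* (p100 and p52), *Rel* and *Relb* had ratios between 0.924 and 1.09. *Bcl3* (1.08) and *Nfkbie*, which encodes IκBε (0.95), lay in the same range. Relative to the median of all listed genes, the median of this group is below 0, as are those of the next group, of the survival genes, of the cell cycle genes, of the other transcription factors and of the dendritic cell and co-stimulation genes.

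Of 12 receptors, adapters and brakes of NF-κB signaling, 1 was at least 1.5-fold higher (8.33%, against 33.9% of all listed genes), with a median log2 ratio of 0.12. This was *Tnip3*, at 49.6 FPKM in *N4bp1*+/+ cells and 78.8 FPKM in *N4bp1*-/- cells. The gene of A20, *Tnfaip3*, had 286 and 370.1 FPKM, a ratio of 1.29, and *Tnip1*, which encodes ABIN-1, a ratio of 1.03. Brakes of the same family thus had unlike ratios. *Traf1*, an adapter of TNF receptors, had a ratio of 1.40 and *Traf2* one of 1.13. The TNF receptor gene *Tnfrsf1b*, the most abundant of the group, had 1262 and 1366 FPKM. The bacterial sensors *Tlr2* and *Nod2* had ratios of 1.08 and 0.979, and the NOD2 kinase *Ripk2* one of 0.792. *Tnfaip2*, *Prkcd* and *Ripk2* were less abundant in *N4bp1*-/- cells by less than 1.5-fold. *Tnfrsf9*, which encodes the co-stimulatory receptor 4-1BB, was under 1 FPKM in both genotypes. Of the 34 genes listed for the path from TLR7 to NF-κB and its brakes, 13 have values. They are all in these groups: 2 of the 13, *Nfkbiz* and *Tnip3*, were higher, against 33.9% of all listed genes. Of the 13, 0 were lower, against 3.23%, and their median log2 ratio was 0.13.

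Among inflammatory cytokines, the most abundant genes and the less abundant ones differed in size of the ratio. Of 8 genes, *Il10*, *Tnfsf15* and *Il6* were at least 1.5-fold higher in *N4bp1*-/- cells (37.5%, against 33.9% of all listed genes) and *Il15* was lower. The median log2 ratio was 0.45. *Il6* (chromosome 5 of mm10, 30013073 to 30019981), which encodes a driver of the acute phase response, had 32.4 FPKM in *N4bp1*+/+ cells and 84.3 FPKM in *N4bp1*-/- cells, a 2.60-fold difference. *Il10* (chromosome 1, 131019845 to 131024974), which encodes the main cytokine that restrains macrophage activation, had 3.56 and 13.7 FPKM, a 3.83-fold difference. Both the driver and the restraint were thus higher, and the level of *Il6* over that of *Il10* was 9.09 in *N4bp1*+/+ and 6.17 in *N4bp1*-/- cells. *Tnfsf15*, which encodes the TNF relative TL1A, had 2.85 and 9.88 FPKM. *Il15*, which encodes a survival factor of NK and memory T cells, had 68.1 FPKM in *N4bp1*+/+ cells and 33.8 FPKM in *N4bp1*-/- cells, 2.01-fold lower.

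The abundant first-wave cytokines did not reach 1.5-fold. *Tnf* had 2141 FPKM in *N4bp1*+/+ cells and 2838 FPKM in *N4bp1*-/- cells, a 1.33-fold difference and the largest absolute difference of the cytokine group, at 697 FPKM. *Il1a* had a ratio of 1.17 and *Il1b* one of 1.13, at 1859 and 2108 FPKM. The gene of their natural antagonist, *Il1rn*, had a ratio of 1.41. The level of *Il1b* over that of *Il1rn* was therefore 7.34 in *N4bp1*+/+ and 5.92 in *N4bp1*-/- cells.

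The IL-12 family pairs a small set of shared subunits into several cytokines, and its members did not move alike. The p40 subunit, *Il12p40* in the authors' table (the gene *Il12b*), is shared by IL-12 and IL-23, *Il12a* encodes the p35 partner in IL-12, and *Il23a* the p19 partner in IL-23. *Il12p40* had 91.9 FPKM in *N4bp1*+/+ cells and 198 FPKM in *N4bp1*-/- cells, a 2.16-fold difference. *Il12a* had 40.9 and 58.4 FPKM, a ratio of 1.43. *Il23a* was 1.76-fold lower, at 27.2 and 15.4 FPKM. The partners of p40 thus differed in direction: p40 over p19 went from 3.38 in *N4bp1*+/+ to 12.9 in *N4bp1*-/- cells, and p40 over p35 from 2.24 to 3.40. *Il27*, which encodes the p28 subunit of IL-27, was 1.72-fold higher (29.1 FPKM in *N4bp1*+/+ cells), and its partner *Ebi3* had a ratio of 1.43. In all, 2 of the 5 subunits were at least 1.5-fold higher (40%, against 33.9% of all listed genes), 1 was lower, and the median log2 ratio was 0.51.

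Of 10 chemokines, 4 were at least 1.5-fold higher in *N4bp1*-/- cells (40%, against 33.9% of all listed genes) and 0 were lower, with a median log2 ratio of 0.42. *Ccl4*, which encodes MIP-1β and recruits monocytes and T cells, had 437 FPKM in *N4bp1*+/+ cells and 825 FPKM in *N4bp1*-/- cells, a 1.89-fold difference. Its neighbour in function *Ccl3*, which encodes MIP-1α and was the most abundant gene of the whole list, had 2722 and 3382 FPKM, a ratio of 1.24. *Cxcl5*, a neutrophil attractant, was 2.66-fold higher, at 10.9 and 28.9 FPKM. The interferon-inducible chemokines *Cxcl10* (11.9 and 21.7 FPKM) and *Cxcl9* (0.304 and 1.23 FPKM) recruit activated T cells through CXCR3. *Cxcl10* was 1.82-fold and *Cxcl9* 4.06-fold higher, or 1.71-fold with a pseudocount of 1 FPKM. *Ccl5* was just under the fold, at 345 and 496 FPKM, a ratio of 1.44, and the monocyte attractant *Ccl2* had a ratio of 1.14. *Ccl17* and *Ccl22*, ligands of CCR4 made by dendritic cells and macrophages, and *Ccl9* had ratios between 0.784 and 0.848.

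Among 8 growth factors, colony-stimulating factors and peptide hormones, 6 were at least 1.5-fold higher (75%, against 33.9% of all listed genes) and 1 was lower, with a median log2 ratio of 1.01. With a pseudocount of 1 FPKM 4 were higher, 0 were lower and the median was 0.77. *Csf3* (chromosome 11, 98701263 to 98703629) encodes G-CSF, which drives neutrophil production. It had 2.00 FPKM in *N4bp1*+/+ cells and 7.92 FPKM in *N4bp1*-/- cells, a 3.95-fold difference. *Csf1*, which encodes the macrophage growth factor M-CSF, was just under the fold, at a ratio of 1.49. *Inhba*, which encodes activin A, and *Edn1*, which encodes the vessel-constricting peptide endothelin-1, were each 2.07-fold higher. *Inhba* had 17.6 FPKM in *N4bp1*+/+ cells and 36.5 FPKM in *N4bp1*-/- cells, and *Edn1* 11.1 and 23.0 FPKM. *Pdgfb*, a growth factor for mesenchymal cells, was 1.97-fold higher, at 50.9 and 100.2 FPKM. *Penk*, which encodes proenkephalin (1.71 and 3.02 FPKM), and the neuregulin gene *Nrg1* (0.58 and 1.27 FPKM) were low in both genotypes, and neither was past 1.5-fold with a pseudocount of 1 FPKM. *Hamp*, which encodes the iron hormone hepcidin, was 5.43-fold lower, at 0.323 and 0.0594 FPKM. With the pseudocount its log2 ratio was −0.32.

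**Figure D3:**
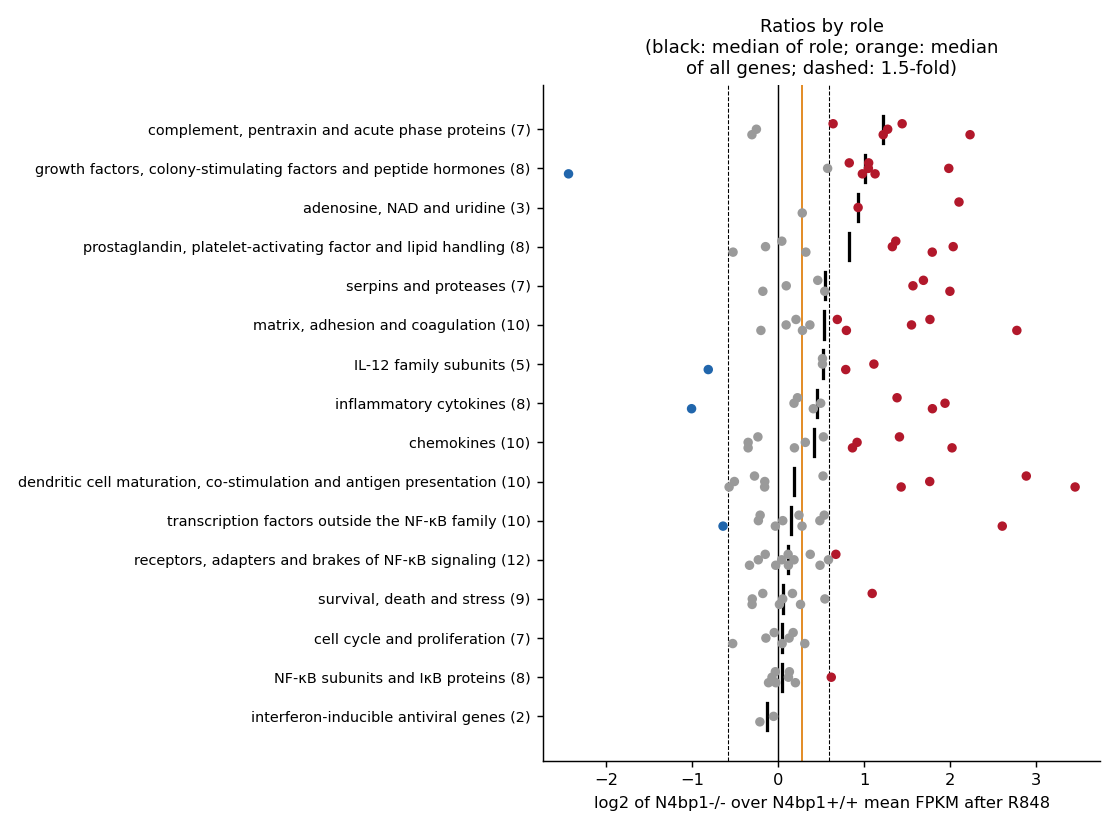
Log2 ratio of N4bp1-/- over N4bp1+/+ mean FPKM after R848 (x axis, no pseudocount) for every gene, in 16 groups by role with the number of genes in brackets; black bars are group medians, the orange line the median of all 124 genes, and colours mark genes at least 1.5-fold higher (red) or lower (blue). The medians run from −0.14 for the 2 interferon-inducible antiviral genes to 1.22 for complement, pentraxin and acute phase proteins.

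The listed genes include 2 enzymes of prostaglandin synthesis, both far above 1 FPKM. *Ptgs2* encodes COX-2, the inducible enzyme that commits arachidonic acid to prostaglandins, and *Ptges* encodes the synthase that completes prostaglandin E2. *Ptges* (chromosome 2, 30889471 to 30934953) had 40.5 FPKM in *N4bp1*+/+ cells and 166 FPKM in *N4bp1*-/- cells, a 4.10-fold difference. *Ptgs2* had 175 and 452 FPKM, a 2.58-fold difference. Both listed enzymes were thus higher, and with a pseudocount of 1 FPKM the folds were 4.02 and 2.57. *Ptafr*, the receptor for platelet-activating factor, was less abundant in *N4bp1*-/- cells, at 312 and 216 FPKM, 1.44-fold lower. Among lipid genes, *Cyp7b1*, an oxysterol hydroxylase, was 2.51-fold higher at 1.54 and 3.86 FPKM. The endothelial lipase gene *Lipg* was 3.46-fold higher but under 1 FPKM in both genotypes. The oxidised LDL receptor *Olr1*, the cholesterol exporter *Abca1* and the phospholipase *Plcd1* had log2 ratios between −0.15 and 0.32. Over these 8 genes 4 were at least 1.5-fold higher (50%, against 33.9% of all listed genes), or 3 with the pseudocount, and the median log2 ratio of 0.82 became 0.38 with the pseudocount.

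Of the 3 genes of nucleoside and NAD handling, 2 were higher (66.7%, against 33.9% of all listed genes). *Upp1*, the uridine phosphorylase, had 3.08 FPKM in *N4bp1*+/+ cells and 13.2 FPKM in *N4bp1*-/- cells, a 4.29-fold difference. *Cd38*, the main NAD-consuming ectoenzyme of macrophages, was 1.90-fold higher, at 65.5 and 125 FPKM. *Adora2a*, the receptor through which adenosine dampens macrophages, had a ratio of 1.21 at 2.74 and 3.33 FPKM.

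The group of complement, pentraxin and acute phase proteins had the highest median, a log2 ratio of 1.22, with 5 of 7 genes at least 1.5-fold higher (71.4%, against 33.9% of all listed genes) and 0 lower. The joined locus of *C2*, *Cfb* and *Gm20547*, whose complement proteases form the classical and alternative C3 convertases, had 15.1 FPKM in *N4bp1*+/+ cells and 70.9 FPKM in *N4bp1*-/- cells, a 4.69-fold difference. Reads of its genes are counted together in the table, so the difference cannot be assigned to either protease. *C3* itself, the central complement protein, was 2.33-fold higher, at 44.1 and 103 FPKM. *Ptx3*, a pentraxin that tags microbes, was 2.71-fold higher, at 12.5 and 34.0 FPKM. *Lcn2*, which encodes the iron-siderophore trap lipocalin-2, was 2.41-fold higher, at 23.0 and 55.6 FPKM. The orosomucoid genes *Orm1*, *Orm2* and *Orm3* are near-identical neighbours on chromosome 4, between whose copies reads can be split, and all were below 2 FPKM. *Orm1* was 1.55-fold higher, or 1.27-fold with a pseudocount of 1 FPKM, and was also under the fold when all ratios were divided by the median ratio of the 42 most abundant genes. *Orm2* and *Orm3* had ratios of 0.808 and 0.838.

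Among 7 serpins and proteases, 3 were at least 1.5-fold higher (42.9%, against 33.9% of all listed genes), all of them serine protease inhibitors of the *Serpina3* cluster at low levels. Adding 1 FPKM to both means left 2 higher, and the median log2 ratio was 0.34 in place of 0.54. *Serpina3g* had 0.964 FPKM in *N4bp1*+/+ cells and 3.10 FPKM in *N4bp1*-/- cells, and *Serpina3n* had 0.385 and 1.54 FPKM. *Serpina3f* was under 1 FPKM in both. These genes are close paralogs, so the split of reads among them is uncertain. The gelatinase gene *Mmp9* and the urokinase gene *Plau* had ratios of 1.07 and 0.882. The remaining 2 serpins did not pass the fold, with ratios of 1.37 and 1.45.

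Of 10 genes of matrix, adhesion and coagulation, 5 were at least 1.5-fold higher (50%, against 33.9% of all listed genes) and 0 were lower, with a median log2 ratio of 0.53. After adding 1 FPKM to both means, 4 were higher and the median was 0.44. *Fn1* (chromosome 1, 71585520 to 71662843), which encodes the matrix protein fibronectin, had 190 FPKM in *N4bp1*+/+ cells and 557 FPKM in *N4bp1*-/- cells, a 2.93-fold difference. *Thbs1*, which encodes the matrix protein thrombospondin-1, was 3.40-fold higher, at 46.8 and 159 FPKM. These abundant transcripts kept their folds with a pseudocount of 1 FPKM, at 2.92 and 3.35. The heparan sulfate proteoglycan *Sdc4* (335 and 580.4 FPKM) and the junctional molecule *F11r* (9.73 and 15.6 FPKM) were 1.73-fold and 1.61-fold higher. The chitinase-like gene *Chil1* was 6.84-fold higher but under 1 FPKM in both genotypes, and its fold was 1.47 with the pseudocount. The adhesion molecule *Vcam1* had a ratio of 1.21, tissue factor (*F3*) one of 1.29 and the hyaluronan receptor *Cd44* one of 0.869 at 609 and 529 FPKM. The transglutaminase gene *Tgm2* and the last gene of the group had ratios of 1.15 and 1.06.

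In the group of dendritic cell maturation, co-stimulation and antigen presentation, some genes of low level were higher, while the abundant members had ratios below 1. Of the 10 genes, 4 were at least 1.5-fold higher (40%, against 33.9% of all listed genes) and 0 were lower, and the median log2 ratio was 0.18. Under the pseudocount of 1 FPKM, 2 were higher and the median was 0.03. Of the 4 genes only *Ccr7* is among the dendritic cell markers listed here, while *Trem1* is known from neutrophils and monocytes, *Il2ra* from T cells and *Fcer2a* from B cells. *Trem1* (chromosome 17, 48232768 to 48246924) had 0.548 FPKM in *N4bp1*+/+ cells and 6.00 FPKM in *N4bp1*-/- cells, a 10.9-fold difference, or 4.52-fold with a pseudocount of 1 FPKM. *Ccr7* had 0.366 and 2.71 FPKM, 7.39-fold or 2.71-fold with the pseudocount. The receptor genes *Il2ra* and *Fcer2a* were under 1 FPKM in both genotypes. The abundant co-stimulatory genes went the other way without passing the fold: *Cd83* had 460 FPKM in *N4bp1*+/+ cells and 309 FPKM in *N4bp1*-/- cells, and *Cd40* had 328 and 271 FPKM. *Cd274*, which encodes the checkpoint ligand PD-L1, the proteasome activator *Psme2* and the peptide-loading factor *Tapbp* had ratios between 0.701 and 0.896. *Cd80*, which engages CD28 and CTLA-4 on T cells, had a ratio of 1.43. The summed level of the 10 genes was 1189 FPKM in *N4bp1*+/+ cells and 952 FPKM in *N4bp1*-/- cells.

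Survival, death and stress genes were mostly near equality. Of 9, *Ier3*, an early response gene of survival and stress signaling, was 2.13-fold higher (53.8 and 115 FPKM). This 1 gene is 11.1% of the group, against 33.9% of all listed genes. In the group 0 were lower, and the median log2 ratio was 0.05. The *Bcl2a1* genes encode copies of the anti-apoptotic protein A1, and the table gives *Bcl2a1a* and *Bcl2a1d* the same locus, so the split of reads between them is uncertain. Their log2 ratios were 0.54 and 0.26, and the ratio of the joined *Bcl2a1b* locus was 1.01 at 1192 and 1203 FPKM. *Sod2* (1.12), the caspase-8 inhibitor *Cflar* (1.04), the death receptor *Fas* (0.882), the pro-apoptotic *Bcl2l11* (0.81) and *Gadd45b* (0.809) did not pass the fold.

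Of 7 genes of cell cycle and proliferation, 0 passed 1.5-fold in either direction, and their median log2 ratio was 0.04. Of all listed genes, 33.9% were higher and 3.23% lower. The cell cycle inhibitor *Cdkn1a* was closest to the fold, at 452 FPKM in *N4bp1*+/+ cells and 313 FPKM in *N4bp1*-/- cells, 1.45-fold lower. *Ccnd2*, which encodes cyclin D2, had a ratio of 1.24, and the kinase gene *Pim1* one of 1.03. The other 4 rows, among them the cyclin-dependent kinase gene *Cdk6* and the polo-like kinase gene *Plk3*, had ratios between 0.904 and 1.13.

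Of 10 transcription factors outside the NF-κB family, 1 was higher (10%, against 33.9% of all listed genes) and 1 lower (10%, against 3.23%). *Sox9*, a factor of cartilage and epithelial progenitors, had 0.255 FPKM in *N4bp1*+/+ cells and 1.55 FPKM in *N4bp1*-/- cells, 6.08-fold or 2.03-fold with a pseudocount of 1 FPKM. *Tfec*, a relative of MITF found in macrophages, was 1.56-fold lower, at 50.2 and 32.1 FPKM. The joined locus of *Hif1a*, *Snapc1* and AC124712.1 and the gene *Cebpd* had ratios of 1.45 and 1.40. *Spi1*, *Junb*, *Irf1*, *Stat5a*, *Prdm1* and *Ier2* had ratios between 0.851 and 1.21. Their levels of 18 FPKM and more in both genotypes leave little room for an effect of the pseudocount.

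Interferon-inducible genes had ratios on both sides of 1. *Mx1* and *Mx2*, antiviral GTPases, had 5.18 and 4.46 FPKM and 1.00 and 0.967 FPKM. Of 11 listed interferon-inducible genes with values, across all roles, 3 (*Cxcl9*, *Cxcl10* and *Il27*) were at least 1.5-fold higher, against 33.9% of all listed genes. Of the 11, 1 (*Il15*) was lower, against 3.23%, and the median log2 ratio was −0.06, against 0.28. *Irf1*, which drives much of this program, had 173 FPKM in *N4bp1*+/+ cells and 169 FPKM in *N4bp1*-/- cells.

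**Figure D4:**
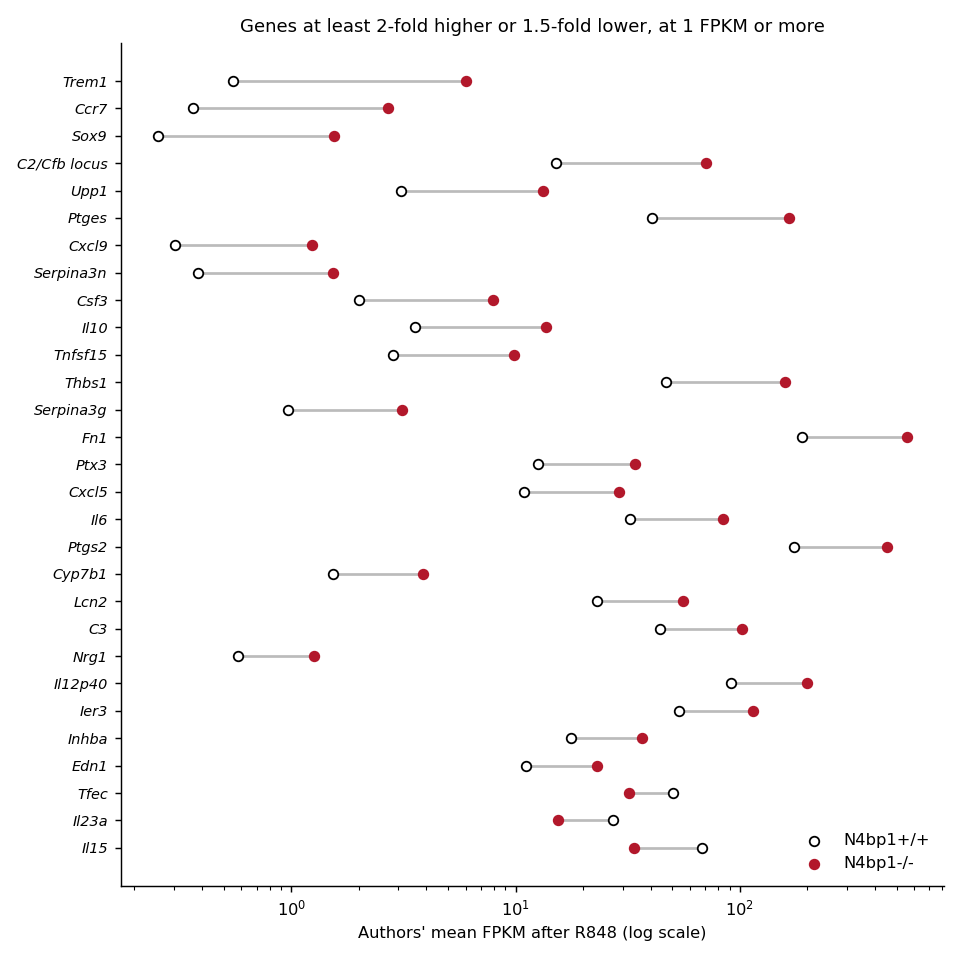
Authors' mean FPKM after R848 (x axis, log scale) in N4bp1+/+ (open) and N4bp1-/- (red) macrophages for the 26 genes at least 2-fold higher and the 3 genes at least 1.5-fold lower that reach 1 FPKM in a genotype. The pairs span levels from 0.255 FPKM for Sox9 to 557 FPKM for Fn1, and Il15, Il23a and Tfec are the pairs with the red point on the left.

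Some members of these groups are also markers of other cell types, and their part in the results was not tested. Their summed levels did not all go the same way. Of 8 neutrophil markers 3 have values, *Lcn2*, *Mmp9* and *Trem1*, with a summed level of 36.6 FPKM in *N4bp1*+/+ cells and 75.5 FPKM in *N4bp1*-/- cells. The 2 resident peritoneal macrophage markers with values, of 8 listed, are *Fn1* and *Thbs1*, which sum to 237 and 716 FPKM. Of 13 stromal or mesothelial markers 7 have values, with sums of 195 and 219 FPKM. *Sox9*, *Cyp7b1*, *Nrg1* and *Penk* among them were higher, while *Vcam1* (1.21), *Serpine2* (1.37) and *Cav1* (1.06) did not pass the fold. Of 6 dendritic cell markers 4 have values, *Ccr7*, *Ccl17*, *Ccl22* and *Cd83*, which sum to 473 and 322 FPKM. Nearly all of this is *Cd83*, at 460 and 309 FPKM, so the sum says little of the others. *Ccl17* and *Ccl22* had ratios of 0.848 and 0.784, and *Ccr7* went the other way, 7.39-fold higher. *Fcer2a* for B cells and *Il2ra* for T cells are the single markers of 4 each with values. None of these markers is at 0, and the defining ones (*S100a8*, *Ly6g*, *Gata6*, *Flt3*, *Cd3e*, *Col1a1*) are not among the rows.

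Unstimulated and LPS-treated cells of the same genotypes show where the R848 values stand apart, as descriptions of means from separate libraries. At the same fold, 58 genes (46.8%) were higher in unstimulated *N4bp1*-/- cells and 26 (21%) after LPS, while 5 (4.03%) and 20 (16.1%) were lower. Of the 42 genes higher after R848, 32 (76.2%) were also higher without stimulus, where they make up 55.2% of the 58. With LPS 23 were shared, 54.8% of the R848 set and 88.5% of the LPS set. The genes higher with either ligand and without one number 20, which is 47.6% of the R848 set. They include *C3*, the *C2* and *Cfb* locus, *Fn1*, *Thbs1*, *Ptges*, *Ccr7*, *Trem1*, *Sox9* and *Upp1*. In unstimulated cells many of these means are far below 1 FPKM, but not all. Without stimulus the *C2* and *Cfb* locus was 6.44-fold, *C3* 4.10-fold, *Fn1* 4.01-fold and *Thbs1* 3.88-fold higher. After R848 these folds were smaller, at 4.69, 2.33, 2.93 and 3.40. *Ccr7* and *Sox9* also had larger folds without stimulus, at low levels. *Ptges*, *Trem1* and *Upp1* had smaller folds without stimulus than after R848, at 3.14, 7.56 and 2.78. With a pseudocount of 1 FPKM, 35 genes (28.2%) were higher without stimulus and 1 (0.806%) was lower, against 34 higher after R848. The sources used here do not state how the tables were scaled to each other.

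Of the 42 genes higher after R848, 7 (16.7%) were higher in neither other condition. They were *Ccl4*, *Cxcl10*, *Il12p40*, *Il27*, *Lipg*, *Nrg1* and *Tnip3*. Of these, *Cxcl10* was just under the fold without stimulus, at a log2 ratio of 0.58, and *Il12p40*, *Il27*, *Lipg* and *Nrg1* were then under 1 FPKM in both genotypes. *Lipg* and *Nrg1* were not past the fold after R848 with a pseudocount of 1 FPKM. *Tnip3* had log2 ratios above 0 in all 3 conditions, at 0.67 after R848, 0.28 without stimulus and 0.31 after LPS. *Ccl4* had log2 ratios of 0.92 after R848, −0.31 without stimulus and −0.37 after LPS. *Il12p40* had 1.11 after R848 and −0.87 after LPS, and in unstimulated cells it was at 0.165 and 0.147 FPKM. *Il27*, at 0.78 after R848 and −0.61 after LPS, and *Edn1*, at 1.05 and −1.11, were likewise higher with one ligand and lower with the other. Both were past 1.5-fold each way, though *Il27* only just so after LPS. The median log2 ratio of all listed genes was −0.09 after LPS, against 0.28 after R848. *Il6* had log2 ratios of 1.38 after R848, 1.39 without stimulus and −0.31 after LPS, the second at 0.126 and 0.331 FPKM. All 4 genes lower after R848 (*Il15*, *Il23a*, *Tfec* and *Hamp*) were also lower after LPS. The difference between the ligands was not tested.

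**Figure D5:**
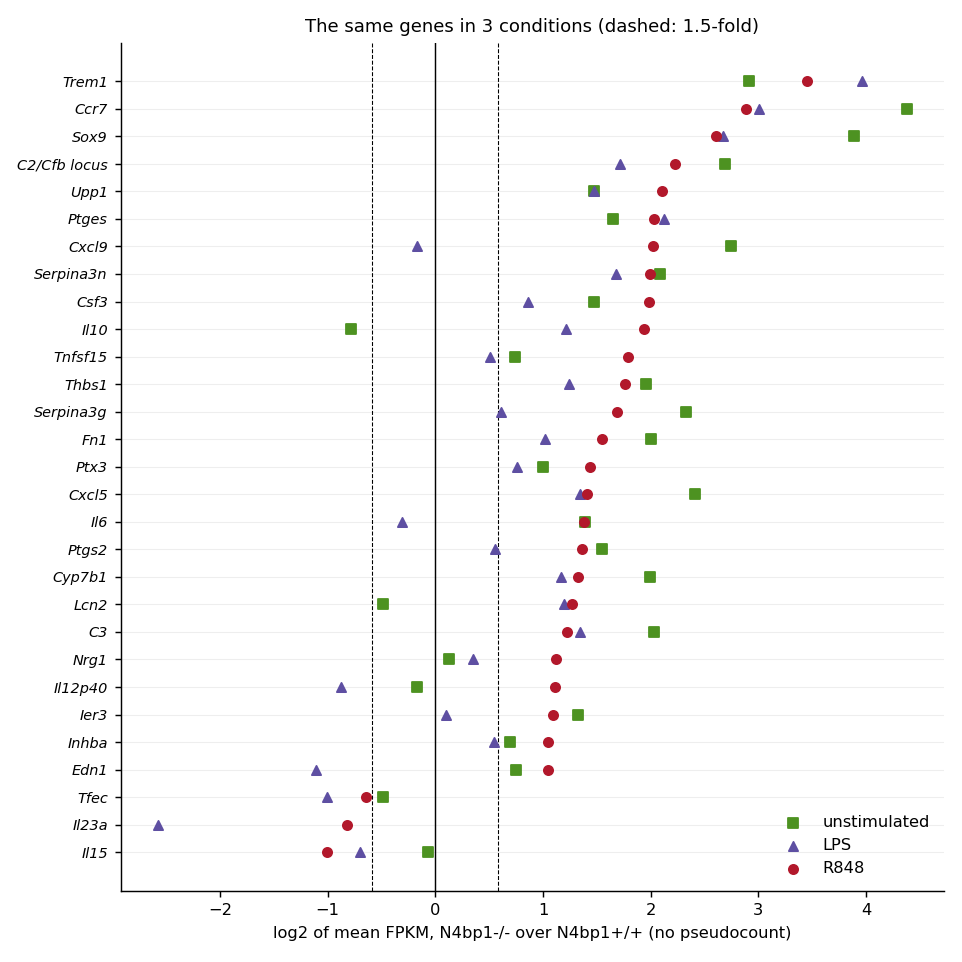
Log2 ratio of N4bp1-/- over N4bp1+/+ mean FPKM (x axis, no pseudocount) for the same 29 genes in R848-treated (circles), LPS-treated (triangles) and unstimulated cells (squares); dashed lines mark 1.5-fold, and Il23a has no square because it is listed at 0 in unstimulated N4bp1-/- cells. Il6, Il12p40, Edn1 and Cxcl9 have their circles on the right of 0 and their triangles on the left, while Il15, Il23a and Tfec have both on the left.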

How the data were processed

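Total RNA of cultured peritoneal macrophages was made into stranded mRNA libraries and sequenced in paired ends. The authors aligned reads with TopHat2, assembled transcripts with Cufflinks and compared genotypes with cuffdiff. Versions in the submitters' processing notes are 2.0.10 for TopHat2, 2.1.1 for Cufflinks and 1.8.2 for CASAVA, with the build mm10. Annotation and read filters were not given in sources used here. The authors deposited a single FPKM mean for the 2 mice of each genotype and treatment, for 124 rows in each of 3 tables, 4 of which join several genes. The sources used here do not state the choice of these genes, so nothing can be said of other genes. Columns that hold the authors' own comparison (log2 fold change, test statistic, p-value, q-value) and a table that repeats the means were not used.

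Groups were formed from genotype and treatment in the labels. Log2 ratios of the means were computed with pseudocounts of 0, 0.1 and 1 FPKM, and a gene was called at 1.5-fold. Table starts count from 0 and are printed from 1. The computation was run on the *N4bp1*+/+ means after R848 multiplied by known folds, without noise. This checks the arithmetic only, and not how calls behave under a spread between mice. Python 3.11.15, numpy 2.4.6, pandas 2.3.3 and matplotlib 3.10.9 were used.

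Every row is a member, in 16 groups by role. Both means are given for genes at least 2-fold higher or 1.5-fold lower at 1 FPKM or more and for the genes the study names for this experiment. They are also given for some abundant members. The members, groups and lists were chosen with earlier results of these data known. Promoter windows came from RefSeq (GRCm38.p6, the assembly of mm10), with 1 name matched by a synonym. Other folds, an FPKM minimum, single-gene rows and 2 scalings were tried as alternatives.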

Additional observations from a re-analysis of the deposited data

How the results depend on the processing

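The count of genes at least 1.5-fold higher after R848 stayed between 31 and 58 under all 8 alternatives: 34 with a pseudocount of 1 FPKM, 42 with 0.1 FPKM, 31 at 2-fold, 58 at a fold midway between 1 and 1.5, 37 with at least 1 FPKM in a genotype, 41 over rows of a single gene, and 34 and 38 after division by the median ratio of all listed genes or of the 42 most abundant. The count of lower genes, 4, was 2 at 2-fold, 11 at that midway fold, and 12 and 8 under these scalings. The scalings shift every log2 ratio by 0.28 and 0.15, so that 62 and 74 genes lie above 0 in place of 87, and 62 and 50 below. Under the second scaling *Cd83* (−0.72), *Cdkn1a* (−0.68), *Ptafr* (−0.67) and *Tapbp* (−0.66) pass the fold as lower, and *F11r*, *Nfkbiz*, *Orm1* and *Tnip3* no longer pass it as higher. These scalings rest on listed genes alone and are not neutral references. With a pseudocount of 1 FPKM 9 calls end, *Hamp* among them, and the median log2 ratio of prostaglandin, platelet-activating factor and lipid genes is 0.38 in place of 0.82, below the fold. The alternatives run for single genes, this pseudocount and the second scaling, could not reverse a called gene. A pseudocount keeps the side of a ratio, and the shift of 0.15 is smaller than the fold. The direction of single genes was therefore not put to a test. For 96 genes the ratio after R848 exceeded that after LPS, as it did for 102 with the pseudocount and 48 when each condition was divided by the median ratio of its 42 most abundant genes, a setting chosen after seeing the data. It was larger than without stimulus for 43 of 123 genes, 56 of 124 with the pseudocount and 41 with that scaling. No paired analysis was possible because the values used are 1 mean over both mice of a group, and for the same reason neither mouse was left out in turn. FPKM means without counts leave the precision unknown.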
